A study of Mus musculus with 12 samples.

Results

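The transcripts described here mark the origin of peritoneal macrophages: 20 genes used as markers of large macrophages that reside in the peritoneum and 14 used as markers of monocytes recruited from blood. They were found by gene symbol and made up 34 of the 35050 rows of the count table. The deposited data hold 12 bulk RNA libraries of mouse peritoneal macrophages, 3 in each of 4 groups. Macrophages lacking Ern1, which encodes the endoplasmic reticulum stress sensor IRE1α, and labelled Mac-Ern1KO (KO), were sequenced after contact with R300-coated platelets (R300 KO) and without it (blank KO). Macrophages labelled Ern1fl/fl (WT), which carry the floxed gene that the deletion acts on, were sequenced in the same states (R300 WT and blank WT). All mice were 8 weeks old and labelled male, and all cells were taken 3 days after an injection of 3% Brewer thioglycolate into the peritoneum, a sterile irritant that recruits monocytes. In the R300 groups the cells had been kept for 2 h with platelets opsonized with R300, an antibody to platelet CD42. The labels call the other treatment Con and do not say whether uncoated platelets were added to it, and they do not name the Cre driver. The comparisons ask how the levels of these markers differed with coated platelets and with loss of Ern1.

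Resident peritoneal macrophages are kept by the transcription factor GATA6, which retinoic acid induces in the peritoneum, and they carry uptake receptors such as TIM4 together with several clotting factors. When the peritoneum is inflamed these cells become fewer in the fluid, and monocytes that leave the bone marrow through the receptor CCR2 enter and turn into macrophages. Such newcomers carry less GATA6 and TIM4, and pass through a state with LY6C2, CCR2 and fibronectin. At 3 days after thioglycolate both kinds of cell can be in the lavage. In bulk RNA, fewer cells of a type and less of a transcript per cell cannot be told apart.

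Library totals ran from 21765586 to 44273655 counts, and levels are given below as TMM-scaled CPM (counts scaled to a common library size), always for libraries 1, 2 and 3 of a group in that order. The macrophage markers Adgre1 (566 to 706 CPM), Csf1r (1496 to 2270 CPM) and Lyz2 (6058 to 13522 CPM) were abundant in all 12 libraries. Counts over the whole Ern1 gene were not lower in KO cells (log2 difference KO minus WT, averaged over both treatments, 0.30 ± 0.13 SE, edgeR adjusted p = 1.00), and since the deleted exons are not named they do not check the deletion. Xist, which female cells make, stood at 143 to 590 CPM in 8 libraries and at no more than 0.0742 CPM in the other 4, against the label male. The libraries without Xist were 1 in each group: R300 KO 3, blank KO 3, R300 WT 2 and blank WT 3. The sum of 4 Y-linked transcripts was 205 to 224 CPM in them and 42.6 to 162 CPM in the others, where KO had 42.6 to 71.6 CPM and WT had 69.5 to 162 CPM. In the libraries with Xist, the share of female cells and the genotype therefore cannot be told apart, save for blank KO 2 and blank WT 2. These were close, with Xist at 464 and 431 CPM and the Y-linked sum at 71.6 and 69.5 CPM, but are 1 library each. R300 KO 1 and 2 were much alike (median chi-square per gene 1.53), as were R300 WT 1 and 3 (1.37), against 6.15 to 10.3 for the other pairs within a group. An R300 group may thus hold fewer than 3 independent samples.

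Genes of both marker lists were present in all libraries, though a transcript's level in bulk RNA does not show which cells made it. Per kilobase of exon, the highest median level over the 12 libraries was that of the monocyte marker Fn1 (fibronectin, 1230 CPM per kb), which alone took 0.745% to 3.00% of a library's counts. After it came the resident markers Saa3 (an acute-phase protein, 183 CPM per kb), F10 (coagulation factor X, 159.9 CPM per kb) and Cd5l (a secreted scavenger protein, 97.6 CPM per kb). Hp (haptoglobin, 64.8 CPM per kb) and F13a1 (the A subunit of factor XIII, 21.3 CPM per kb) were next among the monocyte markers. Gata6 stood 25th of the 34 by this measure (1.31 CPM per kb) and Ly6c2, the antigen of newly arrived monocytes, 28th (1.01 CPM per kb). At the low end, Lyve1, Rarb and Garnl3 had medians of 0.408, 0.148 and 0.0723 CPM per kb. Chil4, a chitinase-like protein, had 3 counts over all 12 libraries and was not tested, so 33 of the 34 genes were. Some of these genes share sequence with others: 32.5% of the 50-base words of Naip1, 20.4% of those of Chil4, 13.1% of those of Ly6c2 and 8.48% of those of Ms4a4c occur in other genes. How reads from shared sequence were counted was not examined. For Folr2 63.1% of the exonic bases, and for Rarb 34.1%, lie opposite exons of a gene on the other strand, and the library kit does not mark strand.

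**Figure D1:**
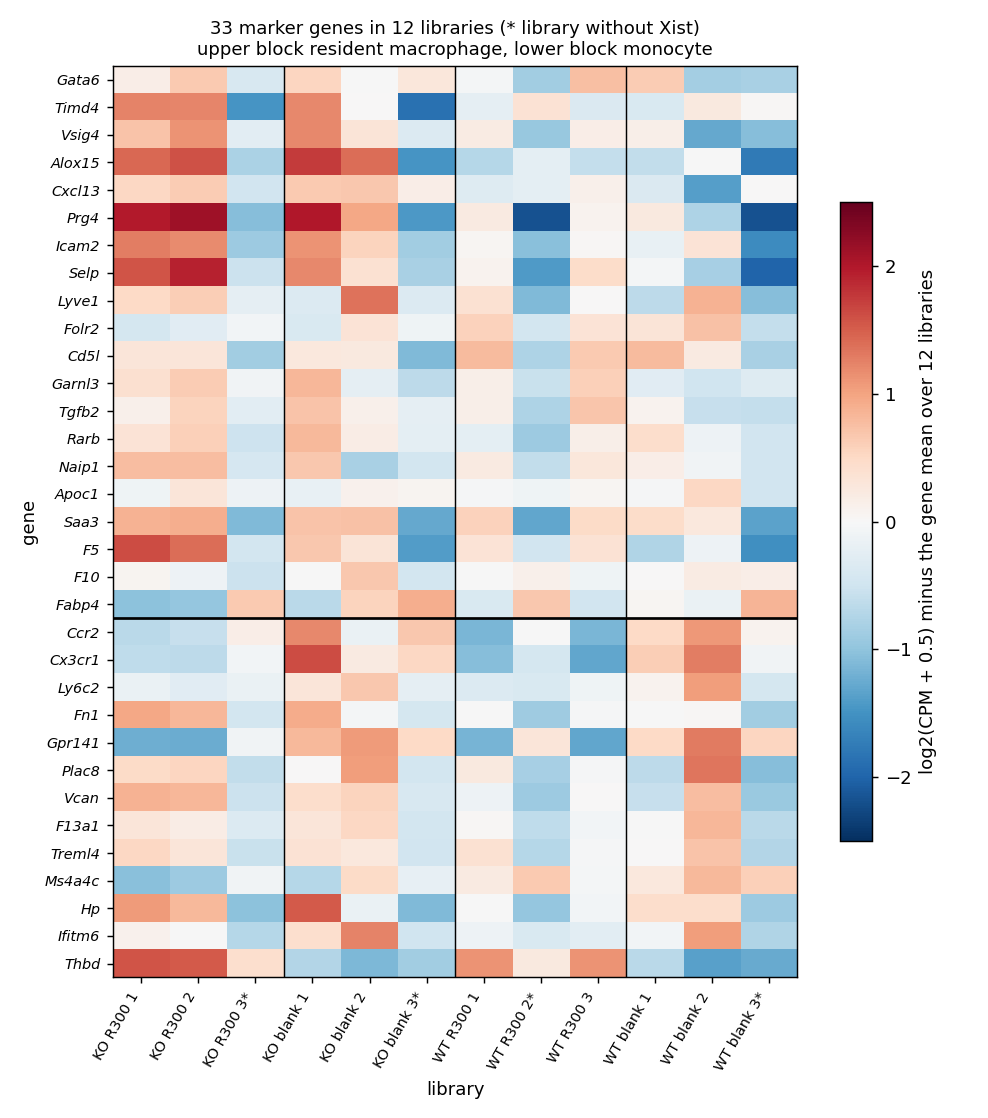
Levels of the 33 tested markers (rows, resident markers above the black line) in the 12 libraries (columns, stars for libraries without Xist), as log2(CPM + 0.5) minus the gene's mean over all libraries. Prg4, Selp and Saa3 are pale or blue in each starred library, and Thbd is red in the R300 columns and blue in the blank ones.

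Of the 33 markers, Thbd was the one that rose with R300-coated platelets in each genotype, and Cx3cr1 and Gpr141 fell when the genotypes were averaged. All 3 come from the list of monocyte markers, and none of the 20 resident markers passed the test. In R300 KO against blank KO 1 of 33 markers was called, with 0.834% of all 16546 genes called (0.695% higher, 0.139% lower). In R300 WT against blank WT it was also 1 of 33, with 0.623% of all genes called (0.55% higher, 0.0725% lower). Averaged over genotypes, 3 of 33 were called, with 3.64% of all genes called (2.43% higher, 1.21% lower). The test was edgeR's quasi-likelihood test over all 12 libraries, with Benjamini-Hochberg adjusted p under 0.05 called.

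Thbd encodes thrombomodulin, a membrane protein that binds thrombin and turns it to activating the anticoagulant protein C; it lies on chromosome 2 from 148404466 to 148408188 on the minus strand (GRCm38). It had 129, 125 and 57.2 CPM in R300 KO, against 25.7, 19.5 and 23.3 CPM in blank KO. In R300 WT it had 94.6, 50.7 and 94.0 CPM, against 26.7, 16.4 and 17.6 CPM in blank WT. All 6 R300 libraries were above all 6 blank ones, as were those of 2.57% of all genes, and in each genotype the lowest R300 library was the one without Xist. The fold change was 4.54 in KO (log2 2.18 ± 0.34 SE, edgeR adjusted p = 0.0144) and 3.95 in WT (log2 1.98 ± 0.34, adjusted p = 0.0291). Averaged over genotypes it was 4.24 (log2 2.08 ± 0.24, adjusted p = 0.000868). The difference of the responses, KO minus WT, was 0.20 log2 units, with a 95% interval of -0.81 to 1.22. Within libraries with Xist the R300 over blank ratio of means was 5.62 in KO and 4.38 in WT, and within those without it, 1 library a group, it was 2.46 and 2.87. Thbd also marks endothelium, and the summed level of 13 genes listed for endothelium, Thbd among them, was 614 to 651 CPM in R300 KO, against 250.3 to 393 CPM in blank KO. It was 573 to 594 CPM in R300 WT, against 239 to 382 CPM in blank WT. Of the 9 tested, which include the markers Thbd, Selp, Icam2 and Lyve1, 8 were higher with R300 averaged over genotypes. Of these 2 were called, Thbd and Pdpn. Pdpn (podoplanin, of lymphatic endothelium and other cells) had 299 to 348 CPM in the R300 libraries, against 69.7 to 215 CPM in the blank ones, and rose 2.46-fold (edgeR adjusted p = 0.0100). Thbd and Pdpn hold much of the rise of the sum, which thus partly follows the Thbd values it is set beside. Vwf and Kdr had 75.1 to 190.2 and 6.31 to 17.6 CPM over the 12 libraries, whereas Cdh5, Tie1, Tek and Cldn5 had at most 2.57, 0.346, 0.138 and 0.0564 CPM. The part of such cells in the Thbd values was not tested.

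The averaged Thbd call held under all the alternatives tried, with adjusted p up to 0.0129. The calls within a genotype ended with no filter on low counts (adjusted p = 0.0584 in KO, 0.10 in WT), with only the groups compared (0.0643 and 0.0820) and with 1 library of each near-alike pair (0.121 and 0.218). In KO the call also ended without any 1 of blank KO 1, 2 and 3 or R300 KO 1 and 2 (0.0638 to 0.0716). In WT it ended without any 1 of blank WT 1, 2 and 3, R300 WT 1 and 3 or R300 KO 2 (0.0528 to 0.144).

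**Figure D2:**
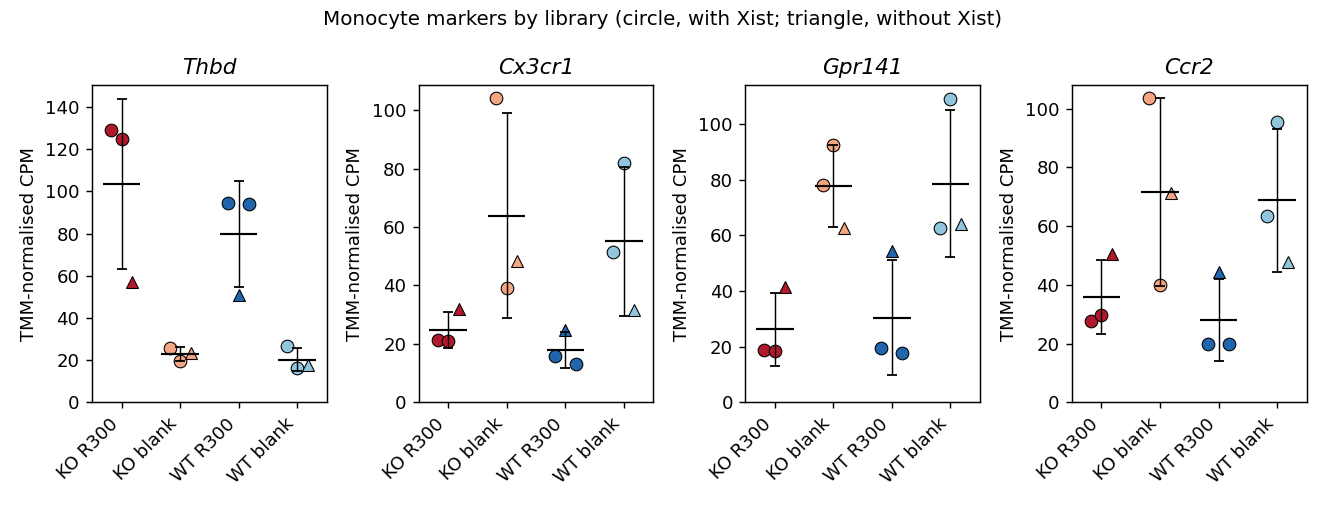
TMM-normalised CPM of the monocyte markers Thbd, Cx3cr1, Gpr141 and Ccr2 in each library (points; triangles are libraries without Xist), with the mean (long bar) and SD of 3 libraries per group. Thbd lies between 50.7 and 129 CPM with R300 and between 16.4 and 26.7 CPM without it, while the R300 triangles of the other 3 genes lie above the R300 circles.

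Of the receptors in the monocyte list, Cx3cr1 and Gpr141 fell with coated platelets. Cx3cr1 encodes the receptor for fractalkine, carried by blood monocytes and many tissue macrophages. It had 21.3, 21.0 and 31.9 CPM in R300 KO, against 104, 39.3 and 48.2 CPM in blank KO. R300 WT had 15.7, 24.7 and 13.3 CPM, against 51.4, 82.1 and 31.7 CPM in blank WT. Within each genotype all R300 libraries were below all blank ones; across genotypes R300 KO 3 lay just above blank WT 3. Cx3cr1 fell to 0.354 of the blank level averaged over genotypes (log2 -1.50 ± 0.30, edgeR adjusted p = 0.0203). The separate values were 0.388 in KO (adjusted p = 0.249) and 0.324 in WT (adjusted p = 0.172), neither past the threshold by edgeR. In libraries with Xist the R300 over blank ratio of means was 0.295 in KO and 0.217 in WT, and in those without it, 1 library a group, it was 0.662 and 0.780.

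Gpr141 encodes an orphan G protein-coupled receptor and lies on chromosome 13 from 19749682 to 19824257 on the minus strand. It had 18.7, 18.4 and 41.4 CPM in R300 KO, against 78.2, 92.4 and 62.7 CPM in blank KO. In R300 WT it had 19.55, 54.2 and 17.6 CPM, against 62.6, 109 and 64.0 CPM in blank WT. All 6 R300 libraries were below all 6 blank ones, as were those of 1.44% of all genes. Gpr141 fell to 0.361 of the blank level averaged over genotypes (log2 -1.47 ± 0.32, edgeR adjusted p = 0.0316), with 0.337 in KO (adjusted p = 0.212) and 0.387 in WT (adjusted p = 0.341). The R300 libraries without Xist, R300 KO 3 and R300 WT 2, were 2.23 and 2.92 times the mean of their group's other libraries. In the edgeR fit of libraries with Xist alone, the level fell to 0.218 of blank in KO (adjusted p = 0.00964) and 0.216 in WT (adjusted p = 0.0125). The R300 libraries left in that fit were R300 KO 1 and 2 and R300 WT 1 and 3, the near-alike pairs. Its p-values may thus rest on a technical spread between them. In libraries without Xist the ratios were 0.661 and 0.847. The window upstream of its start is shown because Gpr141, unlike Cx3cr1, has a RefSeq window that overlaps no annotated exon; capitals mark TGATAA, a form of the letters that GATA factors bind, on either strand.
Gpr141, chr13:19824258-19824507, minus strand, GRCm38: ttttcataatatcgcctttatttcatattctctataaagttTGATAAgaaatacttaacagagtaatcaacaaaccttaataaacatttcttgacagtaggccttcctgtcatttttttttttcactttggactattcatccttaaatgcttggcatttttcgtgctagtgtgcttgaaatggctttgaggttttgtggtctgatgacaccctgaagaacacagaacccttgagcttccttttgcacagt

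The letters TGATAA occur in 7.94% of 32851 RefSeq promoter windows of 250 bases, and here their first base lies at position -209 from the start. A match is a description of the sequence and not a binding site. Windows were found for 24 of the 34 markers.

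Ccr2, the receptor through which monocytes leave the bone marrow, had 27.7, 29.7 and 50.5 CPM in R300 KO, against 104, 39.8 and 71.3 CPM in blank KO. In R300 WT it had 19.97, 44.31 and 19.99 CPM, against 63.3, 95.4 and 47.7 CPM in blank WT. The groups overlapped in KO and did not in WT. Averaged over genotypes the level was 0.453 of blank (log2 -1.14 ± 0.30), short of the threshold (edgeR adjusted p = 0.0670). It passed with Xist status as a term in the fit (adjusted p = 0.0321), in libraries with Xist alone (0.0219), by DESeq2 (0.00414), and without blank KO 2 (0.0402), R300 KO 3 (0.0449) or R300 WT 2 (0.0204). With Xist alone, and without R300 KO 3 or R300 WT 2, an R300 group keeps only its near-alike pair. With the term, these pairs supply part of the R300 spread. Ly6c2 had 2.79, 2.51 and 2.77 CPM in R300 KO, against 4.07, 5.38 and 2.68 CPM in blank KO. It had 2.43, 2.32 and 2.91 CPM in R300 WT, against 3.42, 7.13 and 2.22 CPM in blank WT. The highest library was blank WT 2, and the averaged level was 0.630 of blank (edgeR adjusted p = 0.260).

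By DESeq2 Cx3cr1 was called in KO (adjusted p = 0.04997) and in WT (0.0104), and Gpr141 in KO alone (0.0265). DESeq2 called 2.65% of all genes in KO and 2.15% in WT. The averaged edgeR calls for Cx3cr1 and Gpr141 ended with no filter on low counts (adjusted p = 0.0871 and 0.131) and with 1 library of each near-alike pair (0.168 and 0.192). Without any 1 of R300 KO 1 and 2 or R300 WT 1 and 3, Cx3cr1 stood at 0.0650 to 0.0685 and Gpr141 at 0.0804 to 0.0937; Gpr141 also lost its call without blank KO 1, blank KO 2 or blank WT 2 (0.0636 to 0.0721).

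The remaining 8 tested monocyte markers had adjusted p from 0.427 (Ifitm6, an interferon-induced membrane protein, at 0.635 of blank) to 0.997 (Vcan, which encodes versican) when the genotypes were averaged by edgeR. Ifitm6 averaged 6.66 ± 2.02 CPM in R300 KO and 11.3 ± 6.65 CPM in blank KO, and 6.25 ± 0.590 CPM in R300 WT and 9.13 ± 6.18 CPM in blank WT (SD, n = 3 each). Vcan, whose product is a proteoglycan of the extracellular matrix, averaged 234 ± 106 CPM in R300 KO and 197 ± 63.2 CPM in blank KO, and 134 ± 40.9 CPM in R300 WT and 159 ± 106 CPM in blank WT. F13a1 had 89.5 to 255 CPM over the 12 libraries, Hp 49.1 to 308 CPM, Treml4, a receptor of the TREM family, 9.71 to 27.5 CPM and Plac8 4.45 to 25.6 CPM. The libraries of R300 and blank cells overlapped for all 6 of these genes in both genotypes. Over all 13, the median log2 change was -0.12 in KO (5 higher, 8 lower) and -0.40 in WT (1 higher, 12 lower), against -0.00359 and -0.00472 over all genes. Libraries did not overlap between R300 and blank for 1 higher and 2 lower monocyte markers in KO (all genes: 6.64% higher and 5.68% lower) and for 1 higher and 3 lower in WT (6.74% and 6.09%). In libraries without Xist, 8 of 13 were lower with R300 in KO (median ratio 0.952) and 5 of 13 in WT (1.03). In those with Xist it was 8 of 13 in KO (0.893) and 12 of 13 in WT (0.712). Blank WT 2 was the highest of the 12 libraries for 6 of the 13. Its summed level of 10 B cell genes (326 CPM) and of 12 neutrophil genes (150.4 CPM) was also the highest, followed by blank KO 2 (300.1 and 149 CPM). In the other libraries the B cell sums were 117 to 142 CPM in R300 KO, 154 CPM in blank KO 1 and 3, 91.5 to 108 CPM in R300 WT and 92.4 to 119 CPM in blank WT 1 and 3. All 10 B cell genes had lower averaged levels with R300, of which 0 were called by edgeR and 4 had an unadjusted p under 0.05. The part of these cells in the monocyte values was not tested; without blank WT 2 the averaged Cx3cr1 level was 0.408 of blank (adjusted p = 0.0457).

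**Figure D3:**
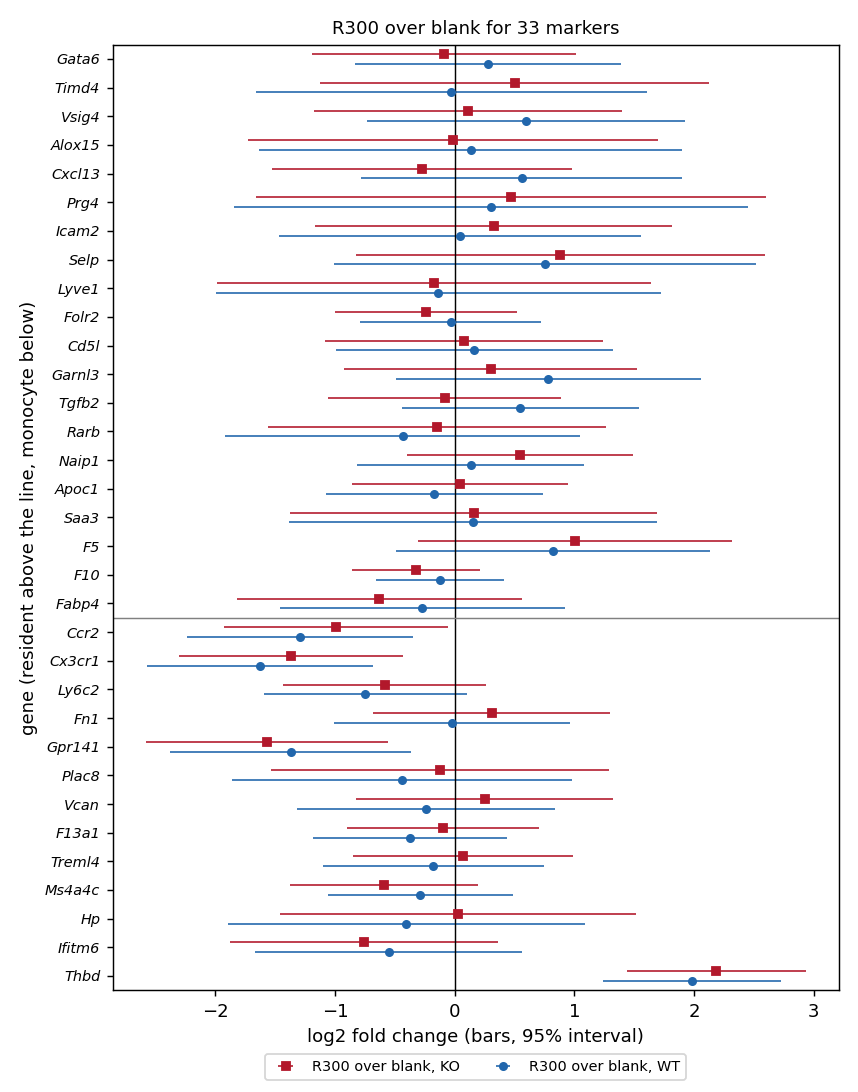
Log2 fold change of each tested marker with R300 over blank, in KO (red squares) and WT (blue circles), with 95% intervals from the edgeR fit; resident markers are above the line. Thbd lies right of 0 in both genotypes, Cx3cr1 and Gpr141 lie left of 0, and the intervals of all 20 resident markers include 0.

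No resident marker passed the test with R300, and their median log2 change was 0.06 in KO and 0.14 in WT. No resident marker had R300 and blank libraries that did not overlap in either genotype (all genes: 6.64% higher and 5.68% lower in KO, 6.74% and 6.09% in WT). By edgeR 0 of 20 had an unadjusted p under 0.05 in either genotype, against 8.78% of all genes in KO and 8.72% in WT. DESeq2 likewise called 0 of the 20 in either genotype or averaged, against 2.65% of all genes in KO, 2.15% in WT and 7.39% averaged. Gata6 had 9.11, 12.9 and 5.94 CPM in R300 KO, against 11.9, 7.95 and 9.83 CPM in blank KO. R300 WT had 7.73, 4.15 and 13.8 CPM, against 12.7, 4.24 and 4.37 CPM in blank WT. The groups overlapped, and the averaged log2 change was 0.09 (95% interval -0.69 to 0.88), so the data leave a change of either sign within that interval possible.

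Timd4 encodes TIM4, a receptor for phosphatidylserine on dying cells. It had 39.5, 38.8 and 5.53 CPM in R300 KO, against 38.5, 16.6 and 4.12 CPM in blank KO. R300 WT had 13.9, 21.1 and 12.7 CPM, against 12.5, 19.5 and 16.6 CPM in blank WT. The spread within the KO groups was wider than any difference with R300 (averaged log2 change 0.24, 95% interval -0.91 to 1.39). Cd5l had 204, 205 and 90.9 CPM in R300 KO, against 200.4, 197 and 76.5 CPM in blank KO. It had 286, 96.8 and 261 CPM in R300 WT, against 287, 193 and 94.3 CPM in blank WT. In all 4 groups the library without Xist was the lowest, and the averaged log2 change with R300 was 0.12 (95% interval -0.70 to 0.94).

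Among the clotting factors of the resident list, F5 had the largest difference with R300. F5 (coagulation factor V) and Selp (P-selectin, an adhesion receptor of platelets and endothelium) are neighbours on the plus strand of chromosome 1, Selp from 164115264 to 164150026 and F5 from 164151838 to 164220277. Both overlap exons of Gm16548 on the other strand (438 bases of Selp and 262 of F5). Their upstream windows are shown because both genes were called once Xist status was a term in the fit, as given below. Capitals mark AGGTCA, letters that nuclear receptors such as the retinoic acid receptors bind, and CCACCC, letters that KLF factors bind, on either strand.
Selp, chr1:164115014-164115263, plus strand, GRCm38: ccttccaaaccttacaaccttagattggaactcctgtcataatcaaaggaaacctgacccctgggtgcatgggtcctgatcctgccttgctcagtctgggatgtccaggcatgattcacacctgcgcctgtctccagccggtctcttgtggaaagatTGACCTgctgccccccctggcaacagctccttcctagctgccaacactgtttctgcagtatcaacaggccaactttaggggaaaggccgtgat
F5, chr1:164151585-164151834, plus strand, GRCm38: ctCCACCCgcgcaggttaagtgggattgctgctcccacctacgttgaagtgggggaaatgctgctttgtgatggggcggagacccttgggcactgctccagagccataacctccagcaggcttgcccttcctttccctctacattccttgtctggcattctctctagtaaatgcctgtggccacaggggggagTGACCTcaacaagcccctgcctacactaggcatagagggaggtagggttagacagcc

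AGGTCA occurs in 14.0% and CCACCC in 28.1% of the 32851 windows of this length. AGGTCA was present on the minus strand at position -93 for Selp and -57 for F5, and upstream of 5 of the 13 resident markers with a window, the others being Cxcl13, F10 and Timd4.

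F5 had 241, 206 and 56.5 CPM in R300 KO, against 125, 96.6 and 29.2 CPM in blank KO. R300 WT libraries had 97.7, 55.5 and 99.8 CPM, against 45.7, 70.9 and 26.6 CPM in blank WT. The groups overlapped, and the averaged level was 1.88 times blank (log2 0.91 ± 0.42, edgeR adjusted p = 0.330). The ratio was 1.93 and 2.08 in the KO and WT libraries without Xist, and 2.02 and 1.69 in those with it. With Xist status as a term in the fit the averaged value was 1.92 (adjusted p = 0.0106), and in libraries with Xist alone 1.85 (adjusted p = 0.0214). The near-alike pairs supply the whole R300 spread in libraries with Xist alone, and part of it with the term.

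Selp had 17.7, 22.9 and 3.75 CPM in R300 KO, against 13.5, 7.46 and 3.00 CPM in blank KO. In R300 WT it had 6.04, 1.80 and 8.00 CPM, against 5.45, 2.97 and 1.04 CPM in blank WT. The groups overlapped (averaged 1.76 times blank, adjusted p = 0.537), and with Xist status as a term the value was 1.70 (adjusted p = 0.0426). In that fit 6 of 33 markers were called with R300 averaged over genotypes, with 9.02% of all genes called: Thbd, F5 and Selp higher, and Cx3cr1, Gpr141 and Ccr2 lower. Platelets carry P-selectin and factor V, and platelets were added to the R300 cells. Among the platelet transcripts, Pf4 was at 40.2 to 114 CPM in the 12 libraries, and Itga2b, Gp9 and Gp5 at 1.73 to 3.08, 0 to 0.485 and 0 to 0.242 CPM. Clec1b, the receptor CLEC-2 of platelets and some myeloid cells, had the lowest p of that list. It had 1.38, 2.12 and 0.985 CPM in R300 KO, against 0.957, 0.208 and 0.491 CPM in blank KO, and R300 WT had 1.61, 0.658 and 1.79 CPM, against 0.346, 0.339 and 0.593 CPM in blank WT. Its R300 libraries all lay above the blank ones within each genotype (averaged log2 difference 1.56, edgeR adjusted p = 0.0595). Ppbp, a platelet chemokine, had 4.14, 4.50 and 1.05 CPM in R300 KO, against 2.06, 1.22 and 0.846 CPM in blank KO (averaged over genotypes log2 0.95, adjusted p = 0.293). The summed level of 14 genes listed for platelets, F5, Selp and F13a1 among them, was 248 to 568 CPM in R300 KO, 206 to 423 CPM in blank KO, 210.4 to 359.6 CPM in R300 WT and 174 to 424 CPM in blank WT. F5 and F13a1 held 241 and 177 of the 568 CPM in R300 KO 1, and 70.9 and 255 of the 424 CPM in blank WT 2. The sum thus largely follows these markers and does not gauge platelet RNA. By edgeR 0 of the 11 tested were called, and 2, Clec1b and Ppbp, were higher at an unadjusted p under 0.05. The part of platelet RNA in the F5 and Selp values was not tested.

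Coagulation factor X did not pass the test: F10 had 454, 399 and 301 CPM in R300 KO, against 434, 693 and 317 CPM in blank KO, and in WT its R300 libraries (405 to 474 CPM) overlapped the blank ones (439 to 501 CPM). Garnl3, with F5 one of the 2 resident markers of lowest p in WT, had 1.21, 0.554 and 1.85 CPM in R300 WT, against 0.779, 0.599 and 0.742 CPM in blank WT.

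The resident markers Naip1, Folr2, Tgfb2, Lyve1, Rarb and Apoc1 had no call in any comparison. Naip1, an NLR family protein that senses bacterial secretion proteins, averaged 27.0 ± 11.0 CPM in R300 KO and 18.5 ± 10.8 CPM in blank KO, and 19.6 ± 6.20 CPM in R300 WT and 17.9 ± 4.08 CPM in blank WT (SD, n = 3 each). Folr2 averaged 16.7 ± 2.25 CPM in R300 KO and 19.8 ± 5.22 CPM in blank KO, and 23.4 ± 8.11 CPM in R300 WT and 23.9 ± 10.3 CPM in blank WT. Tgfb2, a cytokine of the TGF-beta family, had 1.59 to 5.38 CPM over the 12 libraries, and Lyve1, a hyaluronan receptor, 0.346 to 4.16 CPM. Rarb, a retinoic acid receptor, had 0.173 to 1.70 CPM and Apoc1, an apolipoprotein, 0.371 to 1.22 CPM. For these 6 genes the libraries overlapped between R300 and blank cells and between KO and WT, and the averaged R300 level lay between 0.816 times blank (Rarb) and 1.26 times blank (Naip1).

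No marker passed the test between KO and WT. Counts were 0 of 33 in R300 KO against R300 WT, 0 of 33 in blank KO against blank WT, and 0 of 33 averaged over treatments. Over all genes 0% were called by edgeR in R300 and in blank cells, and 0.00604% averaged, which is the single gene Lyz2. DESeq2 called 0 of 33 in each of the 3 as well. At an unadjusted p under 0.05 there were 1 of 33 in R300 cells (all genes 1.96%), 2 of 33 in blank cells (1.09%) and 6 of 33 averaged (2.8%). Over both treatments 0 markers had KO and WT libraries that did not overlap (all genes 0.0907% higher and 0.151% lower).

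In R300 cells 16 of 20 were higher in KO than in WT (median log2 difference 0.53), and in blank cells 17 of 20 (0.57), against medians of -0.00592 and 0.00252 over all genes. Among the monocyte markers, 11 of 13 were higher in R300 KO (median 0.36) and 8 of 13 in blank KO (0.06). The KO libraries without Xist, set against the WT ones without it, had 13 of 20 resident markers higher with R300 (median ratio 1.15) and 16 of 20 higher in blank cells (1.32). In libraries with Xist the counts were 16 of 20 (1.40) and 17 of 20 (1.57). The summed level of the 20 was 1982, 1954 and 810 CPM in R300 KO, against 1566, 957 and 1475 CPM in R300 WT. Blank KO had 1800.2, 1902 and 779 CPM, against 1489, 1384 and 936 CPM in blank WT. The library without Xist had the lowest sum in all 4 groups, so the groups overlapped in both treatments. Genes listed for mast cells were higher in KO too, 6 of 7 tested in each treatment (median log2 difference 0.61 with R300 and 1.11 in blank cells), with 4 of 7 at an unadjusted p under 0.05 averaged (all genes 2.8%) and 0 called by edgeR. The summed level of 9 such genes was 94.7, 64.9 and 52.1 CPM in R300 KO, against 50.4, 41.6 and 60.7 CPM in R300 WT. Blank KO had 20.2, 47.1 and 27.4 CPM, while blank WT had 14.7, 24.3 and 14.6 CPM. The IgE receptor subunits Fcer1a and Ms4a2, which define mast cells and basophils, had at most 0.483 and 0.212 CPM, and the part of mast cells in the resident values was not tested.

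Same-numbered blank libraries of KO and WT deviated from their group means together (correlations across genes of 0.587 to 0.654), and number 3 is the library without Xist in both. The labels name no pairing, so the pairs were inferred from these same data. Number 2 had the highest B cell sums in both genotypes. Number 1 was unlike in sex transcripts, with Xist at 590 CPM in KO and 148 CPM in WT, and the Y-linked sum at 42.6 and 149 CPM. Within these 3 pairs, 11 of 20 resident markers were higher in blank KO in every pair (all genes 12.1%) and 0 were lower in every pair (12.7%). They were Vsig4, Alox15, Cxcl13, Prg4, Icam2, Selp, Lyve1, Tgfb2, Rarb, Saa3 and F5, while of the monocyte markers Ifitm6 was higher and Ms4a4c lower in every pair. Prg4 was 3.38, 3.37 and 1.71 times WT in pairs 1, 2 and 3, and Selp 2.49, 2.51 and 2.89 times. An edgeR fit of the 6 blank libraries with the pair as a block, added after the data were seen, called 0 of 33 markers and 0% of 15809 genes tested. At an unadjusted p under 0.05 it had 10 of 20 resident and 2 of 13 monocyte markers, against 4.28% of all genes. The lowest p was that of Selp (log2 1.38 ± 0.15, adjusted p = 0.362), and Prg4 stood at log2 1.46 ± 0.21 and Vsig4 at 1.33 ± 0.24 (adjusted p = 0.989 for both).

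Prg4, which encodes the lubricant proteoglycan 4, showed the largest averaged difference. It had 245, 269 and 29.3 CPM in R300 KO, against 71.8, 13.3 and 65.7 CPM in R300 WT. Blank KO had 248, 121 and 22.5 CPM, against 73.4, 36.0 and 13.2 CPM in blank WT. The KO level was 3.39 times WT (log2 1.76 ± 0.70, edgeR adjusted p = 1.00). KO was higher in libraries without Xist too, 1 library a group, at 2.21 times WT with R300 and 1.71 times in blank cells. With Xist status as a term the averaged value was 2.94 times WT (log2 1.55 ± 0.24, edgeR adjusted p = 0.0444). The term separates only libraries with and without Xist. It does not account for the Xist levels within libraries with it, 464 to 590 CPM in KO and 143 to 431 CPM in WT. The near-alike R300 pairs also supply part of the spread in the fit with the term. In that fit 2 of 33 markers were called, with 0.169% of all genes called, and the other was Selp (2.63 times WT, adjusted p = 0.0444). Selp was 2.08 and 2.89 times WT in the R300 and blank libraries without Xist, 1 library a group. In libraries with Xist alone, 0 of 33 markers and 0 of all genes were called.

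Alox15, the lipoxygenase that oxidises arachidonic acid, had 22.4, 25.0 and 4.42 CPM in R300 KO, against 4.68, 6.68 and 5.12 CPM in R300 WT. Blank KO had 27.9, 21.8 and 2.57 CPM, against 5.02, 7.92 and 2.00 CPM in blank WT. The 4 KO libraries with Xist stood at 21.8 to 27.9 CPM and all other libraries at or below 7.92 CPM. The averaged level was 3.30 times WT (log2 1.72 ± 0.57, adjusted p = 1.00), and in libraries without Xist KO was 0.661 times WT with R300 and 1.28 times in blank cells. Timd4 was likewise split: the KO over WT ratio was 2.95 with R300 and 1.72 in blank cells in libraries with Xist, and 0.262 and 0.248 in those without.

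**Figure D4:**
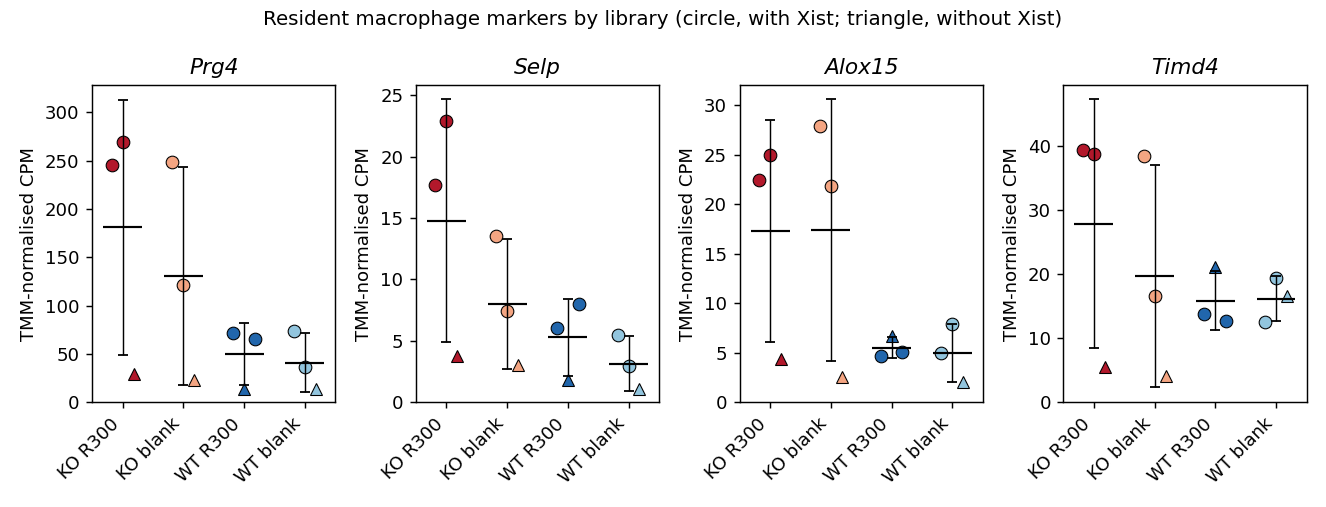
TMM-normalised CPM of the resident markers Prg4, Selp, Alox15 and Timd4 in each library (points; triangles are libraries without Xist), with the mean (long bar) and SD of 3 libraries per group. The KO triangles of Prg4, Alox15 and Timd4 lie at or below 29.3, 4.42 and 5.53 CPM, far below the KO circles.

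Vsig4, the complement receptor CRIg, had 6.59, 8.96 and 3.11 CPM in R300 KO, against 4.51, 1.73 and 4.36 CPM in R300 WT. Blank KO had 9.48, 4.90 and 2.92 CPM, against 4.28, 1.28 and 1.56 CPM in blank WT. The averaged level was 2.08 times WT (adjusted p = 1.00), with ratios of 1.80 and 1.88 in the R300 and blank libraries without Xist. Cxcl13, a chemokine that draws B cells, had 2.18, 2.22 and 1.42 CPM in blank KO, against 0.822, 0.156 and 1.22 CPM in blank WT. It was the 1 resident marker whose blank KO libraries all lay above the blank WT ones (all genes 1.74%), while R300 KO had 1.93, 2.16 and 0.731 CPM, against 0.875, 0.935 and 1.36 CPM in R300 WT. Gata6 and Cd5l averaged 1.23 and 0.801 times WT (adjusted p = 1.00 for both). Folr2, a folate receptor, had the lowest averaged ratio of the resident markers (0.770).

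Among the monocyte markers Ms4a4c, a membrane protein of the MS4A family, had the lowest p between genotypes. It had 4.45, 4.92 and 9.12 CPM in R300 KO, against 11.5, 15.5 and 9.39 CPM in R300 WT. Blank KO had 5.71, 13.7 and 8.44 CPM, against 11.8, 17.6 and 15.1 CPM in blank WT. With R300 all 3 KO libraries were below all 3 WT ones (all genes 3.87%), at 0.509 times WT (log2 -0.97 ± 0.36, adjusted p = 1.00), while the blank groups overlapped (0.629 times WT); 4.03% of all genes had R300 KO libraries all above the WT ones. Fn1 had 28640, 26037 and 10580.4 CPM in R300 KO, against 14577, 7852 and 14292 CPM in R300 WT. Blank KO had 27822, 14168 and 10711 CPM, against 14456, 14979.7 and 7942 CPM in blank WT. Fn1 was lowest in the library without Xist in every group, and its averaged level was 1.58 times WT (adjusted p = 1.00).

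**Figure D5:**
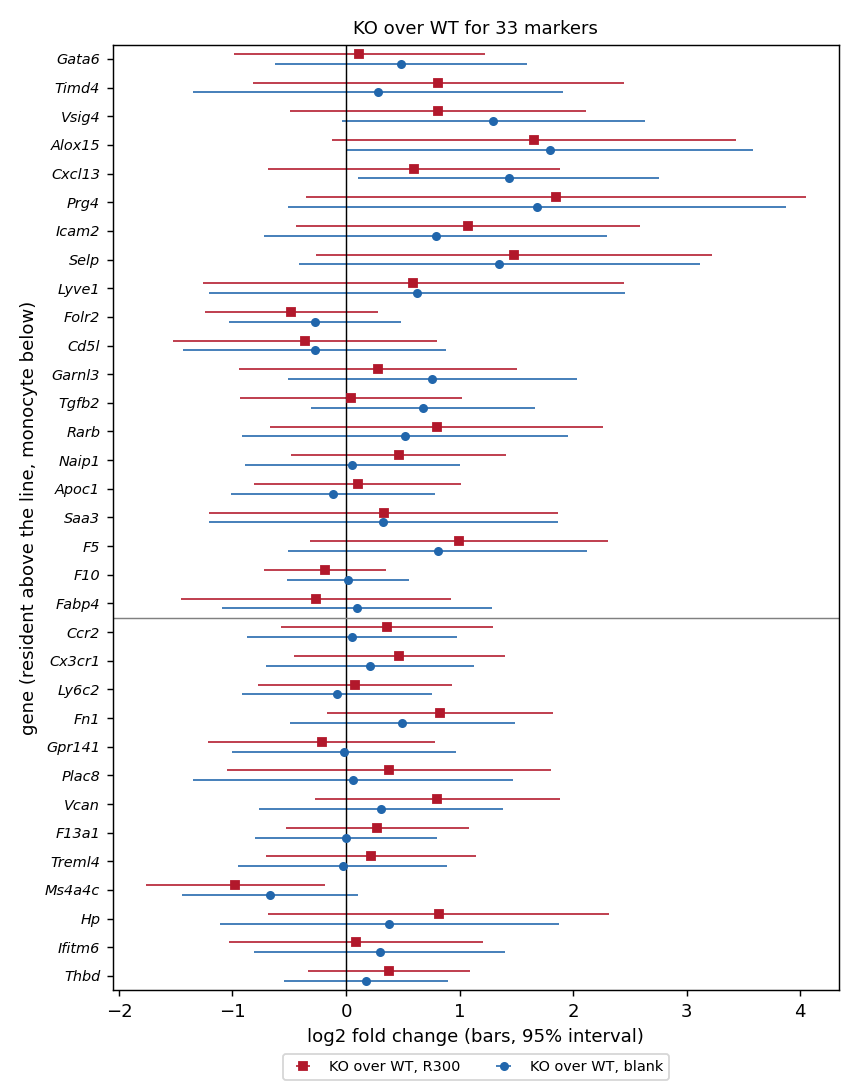
Log2 fold change of each tested marker in KO over WT, with R300 (red squares) and in blank cells (blue circles), with 95% intervals from the edgeR fit; resident markers are above the line. Of the resident markers 16 of 20 lie right of 0 with R300 and 17 of 20 in blank cells, with wide intervals, and Ms4a4c lies left of 0 in both.

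The response to R300 was not shown to differ between genotypes for any marker: 0 of 33 and 0 of 16546 genes were called for the difference by edgeR or by DESeq2, 0 markers had an unadjusted p under 0.05 (all genes 0.574%), and the intervals were wide. For Cx3cr1 the difference, KO minus WT, was 0.26 log2 units (95% interval -1.05 to 1.56), for Gpr141 -0.20 (-1.60 to 1.203) and for Ccr2 0.30 (-1.01 to 1.62).

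Many markers differed within every group between the libraries with and without Xist. Of the 20 resident markers 8 (Prg4, Icam2, Selp, Cd5l, Tgfb2, Rarb, Saa3 and F5) were lowest in the library without Xist in all 4 groups, as were 7 of the 13 monocyte markers (Fn1, Plac8, Vcan, F13a1, Treml4, Hp and Ifitm6), against 12.2% of all genes. Saa3 had 627, 647 and 161 CPM in R300 KO and 570, 575 and 143 CPM in blank KO. It had 518, 140.2 and 482 CPM in R300 WT and 472, 417 and 136 CPM in blank WT. Its 4 lowest values were those of the libraries without Xist. Icam2, an adhesion molecule, had 24.0, 22.7 and 4.93 CPM in R300 KO and 21.6, 14.4 and 5.05 CPM in blank KO, against 10.1, 4.43 and 9.93 CPM in R300 WT and 8.39, 12.4 and 2.93 CPM in blank WT. Fabp4, a fatty acid-binding protein of the resident list, was the single marker highest in that library in all 4 groups, against 13.9% of all genes. It had 32.2, 33.7 and 104 CPM in R300 KO and 41.3, 97.7 and 124 CPM in blank KO. In WT it had 50.9, 106 and 47.2 CPM with R300 and 68.3, 59.3 and 119 CPM without.

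Other genes of the same cells, listed beside the markers, moved with R300 in some cases. Averaged over genotypes, of 26 further genes of large peritoneal macrophages 4 rose and 1 fell, with 2.43% of all genes higher and 1.21% lower. Thbs1, which encodes thrombospondin 1, rose 10.3-fold (edgeR adjusted p = 0.000968), Klf4, a transcription factor of myeloid cells, 2.15-fold (0.00755), Hgf, hepatocyte growth factor, 1.98-fold (0.0189) and Rara, retinoic acid receptor alpha, 1.56-fold (0.0276), while Klf9 fell to 0.627 (0.0268). Of 12 genes of small peritoneal macrophages and MHC class II, Ciita, the master regulator of class II genes, was the 1 called, and fell to 0.419 of blank (adjusted p = 0.000836). Of 23 further monocyte genes tested, Nr4a1, a nuclear receptor that Ly6C-low monocytes need and that stimuli induce at once, rose 5.28-fold (adjusted p = 0.000662). In that list Pou2f2 fell to 0.454 (adjusted p = 0.0282). Nr4a1 had 305, 271 and 223 CPM in R300 KO, against 25.4, 53.3 and 60.3 CPM in blank KO, and 272, 268 and 257 CPM in R300 WT, against 27.2, 65.7 and 71.1 CPM in blank WT.

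Genes of other cell types differed with R300 as well, some of them past the threshold. Of 7 tested mast cell genes all 7 were higher averaged over genotypes (median log2 change 1.07) and 3 were called, with 2.43% of all genes called higher. Gata2, a transcription factor of mast cells and progenitors, rose 4.17-fold (edgeR adjusted p = 4.2e-05), and the mast cell proteases Mcpt4 and Tpsb2 rose 2.20-fold (adjusted p = 0.0428) and 1.85-fold (adjusted p = 0.0231). The summed mast cell level of each R300 group lay above that of its blank group in every library, at 52.1 to 94.7 CPM in R300 KO against 20.2 to 47.1 CPM in blank KO, and 41.6 to 60.7 CPM in R300 WT against 14.6 to 24.3 CPM in blank WT. Of 12 tested genes of mesothelium and fibroblasts all 12 were higher (median log2 change 0.84), with 0 called by edgeR and 1 at an unadjusted p under 0.05. Their summed level was 375 to 892 CPM in R300 KO, against 375 to 496 CPM in blank KO, and 202 to 1482 CPM in R300 WT, against 161 to 696 CPM in blank WT. Ccr7, the chemokine receptor of migrating dendritic cells, rose 3.04-fold (adjusted p = 0.00213), and Cd14, the lipopolysaccharide co-receptor of macrophages, rose 2.82-fold (adjusted p = 0.0261). The part of these cells in the marker values was not tested.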

How the data were processed

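Polyadenylated RNA of peritoneal macrophages was sequenced, and per the labels' protocols the libraries were made with a kit that does not mark strand. The authors deposited raw counts per gene symbol, in 35050 rows for 12 libraries. The submitters' processing notes name FastQC 0.12.1, fastp 0.23.4, HISAT2 (version 2), featureCounts 2.0.3, DESeq2 1.42.0 and the build mm10; the annotation and strand setting are not given in the sources used here. Rows without a symbol (102, holding 0.0232% to 0.0328% of a library's counts) were left out, and no column was unmapped. Libraries held 21765586 to 44273655 counts. Where nothing says that libraries of a group came from separate cultures or mice, p-values measure only the spread between libraries, which may be technical; the series' design text gives 3 biological replicates per group.

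Genes kept by filterByExpr (16546, among them 33 of the 34 markers) were tested in R 4.3.3 with edgeR 4.0.16 (TMM, robust quasi-likelihood F test, 1 mean per group over all 12 libraries; limma 3.58.1 loaded with it), with Benjamini-Hochberg adjustment over all genes tested in each of 7 comparisons. The standard error is the size of the log2 fold change divided by the square root of F, and the common biological coefficient of variation was 0.267. The fit was checked on simulated counts before use. Alternatives were DESeq2 1.42.0, other scalings, no filter, the compared groups alone, Xist status (under 1 CPM or not) as a term, libraries with Xist alone, 1 library of each near-alike pair, the replicate number as a block, and each library left out in turn. The replicate numbers of the titles were taken to pair the blank KO and blank WT libraries, since each of those 3 pairs correlated above 0.1, and no other pair of groups; the blocked fit of the blank libraries was added after seeing the data. Gene positions are GENCODE's for GRCm38, the same assembly as mm10; upstream windows are RefSeq's for GRCm38.p6. The heatmap adds 0.5 to CPM before the log2. Values in every library are printed for Gata6, Timd4, Cd5l, Ccr2, Ly6c2 and Cx3cr1, for markers called in any comparison, and for the 2 resident and 2 monocyte markers of lowest p in each of the 4 pairwise comparisons; Prg4, Vsig4, Saa3, Icam2 and Fabp4 fall outside that rule and were picked after their values were seen, and Selp's values are given in all groups. The markers, the lists and the rule were chosen with earlier results of these data known.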

Additional observations from a re-analysis of the deposited data

How the results depend on the processing

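The counts of markers called were 1 in KO, 1 in WT and 3 averaged over genotypes for R300 against blank, and 0 for each of the other comparisons, and those of genes were 138, 103 and 603 for R300 against blank and 1 for KO against WT averaged over treatments. In R300 KO, R300 WT and averaged, in that order, DESeq2 called 3, 2 and 4 markers and 438, 355 and 1222 genes, and 14, 4 and 50 genes for KO against WT in R300 cells, in blank cells and averaged over treatments. Without a filter on low counts the markers were 0, 0 and 1, with 1 gene called between genotypes in R300 and 1 in blank cells. With the compared groups alone they were 0 and 0 within a genotype, and the genes 43 and 41. With Xist status as a term the genes were 450, 347 and 1492, with 6 markers averaged; between genotypes it called 1 gene in blank cells, and 28 genes and 2 markers averaged over treatments. In libraries with Xist alone, where each R300 group keeps only its near-alike pair, the markers were 2, 2 and 5 and the genes 290, 242 and 1004. No gene was called there between genotypes averaged. With 1 library of each near-alike pair, R300 KO 2 and R300 WT 3 being left out, the markers were 0, 0 and 1 and the genes 34, 28 and 158, with 0 genes between genotypes averaged. The averaged R300 log2 changes of Gata6 and Cd5l turned negative there, at -0.32 and -0.048.

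Leaving out 1 library at a time gave 0 to 1 markers and 45 to 171 genes in KO, 0 to 2 markers and 32 to 135 genes in WT, 1 to 4 markers and 308 to 852 genes averaged, and 1 to 10 genes between genotypes averaged. Signs turned for log2 changes that were not called: F10 in R300 KO ranged from -0.57 to 0.036 (positive without blank KO 2), Fn1 in blank KO against blank WT from -0.0060 to 0.77 (negative without blank KO 1), and averaged with R300, Gata6 from -0.17 to 0.44, Timd4 from -0.016 to 0.70 and Cd5l from -0.056 to 0.32. Where an alternative removes libraries or genes, its smaller number of samples or tests is part of its construction; otherwise the cause was not tested. Over all values recomputed, 1158 were taken as the same. For a gene's log2 change this means the same sign and side of the threshold. For a count of markers or genes it means a number equal or near to the main one. The 1158 also include the levels of both lists per library, which have no threshold. Of the rest, 73 counts moved further than that, 32 log2 changes fell short of the threshold, 17 newly passed it and 12 changed sign.

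With the replicate number as a block the markers called were again 1, 1 and 3, the genes 141, 119 and 667, and Thbd stood at log2 2.17 in KO and 1.99 in WT, while averaged Cx3cr1 stood at -1.45 (edgeR adjusted p = 0.0369) and Gpr141 at -1.48 (adjusted p = 0.0284). Deviations of same-numbered libraries correlated at -0.717 to 0.671 in the 15 pairs other than those of the blank groups, over 0.1 in 6. The number thus does not pair all 4 groups. For the blank groups a pairing was inferred from the correlations alone, without a label for it. A fit of the blank groups alone with that pair as a block likewise called 0 markers and 0 genes. Other scalings moved the median of all genes by at most 0.066 log2 units. With 3 libraries a group, and near-alike R300 pairs among them, the intervals of most markers were wide. Chil4 (3 counts in all) could not be tested.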
